A study of Saccharomyces cerevisiae with 109 samples.

Results

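Trehalose is made and broken down in Saccharomyces cerevisiae by the products of 7 genes, 4 for synthesis (TPS1, TPS2, TPS3 and TSL1) and 3 for the trehalases that split the sugar (NTH1, NTH2 and ATH1). These 7 were chosen by name from the 5876 nuclear protein-coding genes quantified here, and every one of the 7 passed the filter on low counts in every comparison. The cells were haploid W303 yeast of mating type a, whose genotype carries auxotrophic markers that all groups share, grown in minimal medium as separate cultures, 3 biological replicates per condition. Cultures were held at 1 °C or 5 °C with 250 µM of the antioxidant glutathione added (high [GSH]) or with none added (low [GSH]), and cultures at 30 °C had no added glutathione. After 2 weeks in the cold, 5 mM 4-thiouracil (4tU), a uracil analog that enters RNA made from then on, was added, and labelled RNA was purified after 0, 6, 12, 24, 48 and 96 h at 1 °C, after 0, 1.5, 3, 6, 12, 24, 48 and 96 h at 5 °C and after 0, 5, 10 and 20 min at 30 °C. Unfractionated RNA of each culture gave the steady-state libraries. The labels cover 109 libraries, namely 79 of labelled RNA, 15 taken at time 0 and 15 of steady-state RNA, and the 3 h and 12 h libraries of high [GSH] replicate 1 at 5 °C are not among them.

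Trehalose is a nonreducing sugar of glucose units that yeast stores in stationary phase and under stress, and it helps keep proteins and membranes intact through heat, freezing and drying. Tps1 joins UDP-glucose and glucose 6-phosphate into trehalose 6-phosphate, Tps2 removes the phosphate, and Tps3 and Tsl1 are regulatory subunits of the same complex. Nth1, the main neutral trehalase of the cytosol, is switched on by protein kinase A, Nth2 is its paralog, and Ath1 is the acid trehalase that allows growth on trehalose outside the cell. Tps1 also holds back the entry of glucose into glycolysis, so cells that lack it do not grow on glucose.

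TPS1 (YBR126C) lies on chromosome II at 488905-490392, TPS2 (YDR074W) on IV at 593893-596583, TPS3 (YMR261C) on XIII at 790205-793369 and TSL1 (YML100W) on XIII at 70624-73920 of the R64 build. NTH1 (YDR001C) lies on IV at 450220-452475, NTH2 (YBR001C) on II at 238941-241283 and ATH1 (YPR026W) on XVI at 615379-619014. These intervals are the coding sequences of annotated genes, which run from 1488 bases in TPS1 to 3636 bases in ATH1, and no other coding gene overlaps them. No stretch of 31 bases of a member occurs in the coding sequence of an S. cerevisiae gene outside the set, and NTH1 and NTH2 share 3 such stretches. Reads of the members could thus hardly be assigned to other coding genes of this yeast. Transcripts of the spike-in yeast, S. pombe, were not searched.

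The letters AGGGG (or CCCCT on the other strand) are the stress response element, to which the transcription factors Msn2 and Msn4 bind, and they were counted in the 300 bases before each start codon. TPS1 and TSL1 held 3 matches each, TPS3 held 2, NTH1 held 1 and TPS2, NTH2 and ATH1 held 0. Among the 5875 upstream windows of all genes 22.5% held at least 1 match, 3.51% at least 2 and 0.562% at least 3. The letters GAANNTTC or TTCNNGAA, the inverted repeat of heat shock elements, occurred once each before TPS1 and ATH1 and in 22.7% of all windows. The windows of the 3 members richest in these letters are printed, with that of NTH2, which held no match, for contrast. Each runs 5′ to 3′ on the gene's own strand from 300 to 151 bases before the start codon, with AGGGG and CCCCT in capitals (R64, chrII:490543-490692 minus strand for TPS1, chrXIII:70324-70473 plus strand for TSL1, chrXIII:793520-793669 minus strand for TPS3 and chrII:241434-241583 minus strand for NTH2).
TPS1: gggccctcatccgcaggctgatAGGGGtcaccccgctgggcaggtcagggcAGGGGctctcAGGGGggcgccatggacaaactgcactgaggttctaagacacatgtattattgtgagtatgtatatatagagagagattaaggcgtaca
TSL1: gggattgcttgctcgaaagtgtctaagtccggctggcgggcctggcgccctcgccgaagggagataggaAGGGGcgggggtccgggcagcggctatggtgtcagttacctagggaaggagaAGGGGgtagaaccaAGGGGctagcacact
TPS3: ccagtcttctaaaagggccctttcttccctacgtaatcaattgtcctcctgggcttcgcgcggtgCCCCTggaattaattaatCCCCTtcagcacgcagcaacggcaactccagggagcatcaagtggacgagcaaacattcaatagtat
NTH2: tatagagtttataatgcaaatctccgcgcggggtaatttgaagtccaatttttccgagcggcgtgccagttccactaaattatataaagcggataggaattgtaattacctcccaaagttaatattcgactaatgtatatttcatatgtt
The matches before TPS1 begin 278, 249 and 239 bases from the start codon, those before TSL1 231, 179 and 165 bases and those before TPS3 235 and 217 bases. A match is a description of the letters and not of binding.

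Libraries differed in depth, from 14339515 to 18356126 reads in labelled libraries at 5 °C, from 11068310 to 55317824 at 1 °C and from 56059 to 42406637 at 30 °C, and from 14751569 to 60955974 in the steady-state libraries. The shallowest, 30 °C replicate 1 at 5 min, held 18937 mRNA reads and entered no test. The time 0 libraries entered no test of fold changes, and their values were subtracted before half-lives and production rates were fitted. The mating type a genes summed to between 1853 and 4218 TPM in the steady-state libraries and the mating type alpha genes to between 9.19 and 222 TPM, while TRP1, for which the stated genotype carries a deletion allele, was counted at 15.7 to 52.0 TPM. Levels are given in TPM, a transcript level corrected for gene length and rescaled to sum to 1000000 over the 5876 genes. Fold changes come from edgeR on read counts after TMM scaling, which sets the bulk of genes to no change, so that a member is called higher or lower relative to the other genes, at a Benjamini-Hochberg adjusted p below 0.05 over all genes tested. TPM and TMM-scaled values can therefore differ in sign, and each value is named with its scale. Labelling times and depth differed between the temperatures. The 5 °C steady-state libraries were the shallowest of their kind, with a median of 17193891.5 reads, against 36318763 at 1 °C and 30420707 at 30 °C. Temperature and any run or batch cannot be told apart, also between 1 °C and 5 °C.

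At steady state, cells held at 5 °C had more mRNA of 5 of the 7 genes than cells at 30 °C, relative to other genes, and less of NTH2. TPS1, the catalytic subunit that makes trehalose 6-phosphate, had 803, 748 and 717 TPM at 1 °C, 1339.7, 1327 and 1207 TPM at 5 °C and 383, 461 and 459 TPM at 30 °C, all in low [GSH] with replicates 1 to 3 in that order. The 5 °C libraries were the highest and the 30 °C libraries the lowest, without overlap, and TPS1 ranked 98th of 5876 genes by mean TPM at 5 °C and 418th at 30 °C. In TMM-scaled counts TPS1 was higher at 5 °C than at 30 °C by a log2 fold change of 0.93 (SE 0.08, adjusted p = 1.3e-07). The regulatory subunit gene TSL1 had 167, 168 and 146 TPM at 1 °C, 392.1, 388 and 363 TPM at 5 °C and 103, 140.0 and 110.4 TPM at 30 °C, so that the 5 °C libraries stood well above all others in TPM. Its log2 fold change at 5 °C over 30 °C was 1.04 (SE 0.11, adjusted p = 4.86e-07). In bulk RNA a change in the number of cells that express a gene and a change in RNA per cell cannot be told apart.

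The trehalase genes followed no single pattern. ATH1, which encodes the acid trehalase, had 38.6, 39.9 and 37.2 TPM at 1 °C, 107, 114 and 108 TPM at 5 °C and 25.7, 34.7 and 39.5 TPM at 30 °C, and it ranked 4300th, 1771st and 3211th of 5876 genes at these temperatures. The 1 °C and 30 °C libraries overlapped and the 5 °C libraries lay far above both, with a log2 fold change of 1.08 (SE 0.09, adjusted p = 7.55e-08) at 5 °C over 30 °C. The neutral trehalase gene NTH1 had 229, 220.2 and 231 TPM at 1 °C, 428, 440.1 and 440.3 TPM at 5 °C and 136, 177 and 224 TPM at 30 °C. Its 5 °C libraries were again the highest, and at 5 °C over 30 °C it was higher by 0.65 (SE 0.11, adjusted p = 6.61e-05) on the log2 scale. Its paralog NTH2 had 43.5, 47.8 and 44.0 TPM at 1 °C, 59.0, 71.2 and 63.9 TPM at 5 °C and 41.9, 60.9 and 86.0 TPM at 30 °C. The 30 °C libraries of NTH2 spanned both cold groups in TPM, whereas relative to the bulk of genes NTH2 was lower at 5 °C than at 30 °C, with a log2 fold change of -0.59 (SE 0.15, adjusted p = 0.00246). That call was lost when library sizes were the summed mRNA reads (log2 fold change -0.28).

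The other synthesis genes moved less. TPS2, the phosphatase, had 271, 225 and 209 TPM at 1 °C, 353, 332 and 347 TPM at 5 °C and 196, 240.5 and 219 TPM at 30 °C. Its 5 °C libraries lay above the 30 °C libraries in TPM, but the TMM-scaled log2 fold change was 0.00 (SE 0.10, adjusted p = 0.971), which was not called. TPS3 had 135, 140.0 and 113 TPM at 1 °C, 173, 161 and 159.8 TPM at 5 °C and 79.4, 90.8 and 75.7 TPM at 30 °C, with no overlap between 5 °C and 30 °C and a called log2 fold change of 0.35 (SE 0.09, adjusted p = 0.00321). With a trend on coding length removed the TPS3 value was 0.12 (adjusted p = 0.265) and no longer called. In all, 5 of the 7 genes were called higher at 5 °C than at 30 °C, where 36.5% of the 5697 genes tested were, and NTH2 was the 1 called lower, where 37.9% were. The members' median log2 fold change was 0.65, beside -0.03 for all genes tested. With summed mRNA reads as library size the median of all genes moved to 0.29, and with the S. pombe spike-in reads to 0.92. The 5 genes were called higher under both of these scalings too, with TPS2 as a sixth. How many of all genes were called there is not given, so these counts are not a result about the members.

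**Figure D1:**
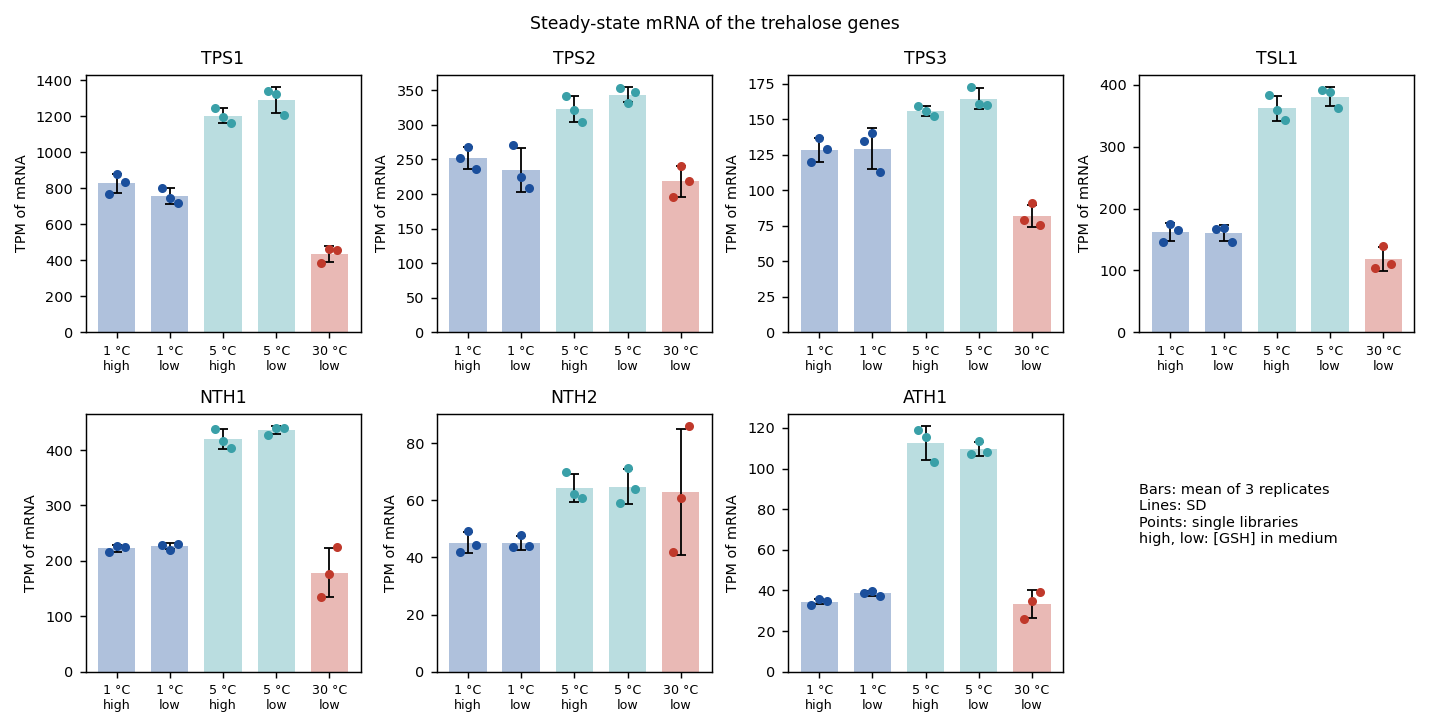
Steady-state mRNA of the 7 genes in TPM (vertical axes, one panel per gene) at 1 °C, 5 °C and 30 °C in high or low [GSH]. Bars are means of 3 libraries, lines the SD and points the libraries. TPS1 averaged 1291 ± 73.3 TPM at 5 °C in low [GSH] and 434 ± 44.2 TPM at 30 °C, and NTH2 averaged 64.7 ± 6.15 and 62.9 ± 22.1 TPM in the same groups.

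Every one of the 7 genes was called lower at 1 °C than at 5 °C, relative to other genes, in both glutathione levels, although scaling to S. pombe reads turned most of these values positive and TPS3 in high [GSH] lost its call with a trend on coding length removed (-0.17, adjusted p = 0.146). In low [GSH] the log2 fold changes at 1 °C over 5 °C were -1.65 (SE 0.09, adjusted p = 8.95e-09) for ATH1, -1.39 (SE 0.11, adjusted p = 1.1e-07) for TSL1 and -1.08 (SE 0.11, adjusted p = 1.16e-06) for NTH1. TPS1 followed with -0.91 (SE 0.08, adjusted p = 5.2e-07), and TPS2, NTH2 and TPS3 fell by 0.69, 0.66 and 0.49 on the log2 scale with adjusted p of 3.42e-05, 0.00165 and 0.000376. The 1 °C libraries lay below the 5 °C libraries in TPM for each of the 7 genes, with means of 38.6 ± 1.36 TPM at 1 °C and 109.7 ± 3.61 TPM at 5 °C for ATH1, the widest gap as a ratio (SD, n = 3 each). In high [GSH] ATH1 had 33.1, 35.6 and 34.7 TPM at 1 °C and 119, 116 and 103 TPM at 5 °C, and TSL1 had 145, 174 and 166 TPM at 1 °C and 383, 359.6 and 343 TPM at 5 °C. These groups were also fully apart, with log2 fold changes of -1.80 (SE 0.09, adjusted p = 3.98e-09) for ATH1 and -1.25 (SE 0.11, adjusted p = 2.54e-07) for TSL1, and the other 5 genes fell by 0.37 to 1.00. Of all genes tested, 28.9% were called lower at 1 °C in low [GSH] and 29.8% in high [GSH]. Scaling to summed mRNA reads moved the median of all genes to 0.33 in low [GSH] and left 5 genes called lower there and 4 in high [GSH]. Scaling to the S. pombe reads moved the median of all genes to 1.36 and 1.31. Then only TSL1 and ATH1 in low [GSH] and ATH1 in high [GSH] had negative values, none of which was called, while 3 members in low [GSH] and 4 in high [GSH] were called higher at 1 °C. No share of all genes called is given for these scalings, so their counts are not a result about the members.

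Against 30 °C, the members at 1 °C gave an answer that turned on the scaling. TMM-scaled counts called NTH2 lower at 1 °C, with a log2 fold change of -1.25 (SE 0.15, adjusted p = 3.02e-06), and TPS2 with -0.69 (SE 0.10, adjusted p = 1.74e-05). ATH1 had -0.57 (SE 0.09, adjusted p = 5.3e-05), NTH1 had -0.44 (SE 0.11, adjusted p = 0.00191) and TSL1 had -0.35 (SE 0.10, adjusted p = 0.00752), which made 5 of the 7 genes lower where 36.4% of all genes were. TPS1 at 0.01 (SE 0.08, adjusted p = 0.888) and TPS3 at -0.14 (SE 0.09, adjusted p = 0.171) were not called. In TPM, TPS1 was higher in every 1 °C library than in any 30 °C library, and so was TPS3. TPS2 averaged 235 ± 31.9 TPM at 1 °C and 219 ± 22.2 TPM at 30 °C, with groups that overlapped. With summed mRNA reads the median of all genes moved to 0.64, and TPS1, TPS3 and TSL1 were called higher and NTH2 lower. With S. pombe reads the median moved to 2.29 and all 7 were called higher. As the share of all genes called under these scalings is not given, the counts are not a result about the members. The call of TSL1 as lower was also lost without 30 °C replicate 2 (adjusted p = 0.0588), and TPS3 was called lower without 30 °C replicate 3 (-0.23, adjusted p = 0.0161).

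The spike-in gave a level that does not rest on the other yeast genes, the TPM of a member per 1000000 TPM of S. pombe transcripts in the same library. It rests instead on how much S. cerevisiae material was set against the fixed amount of S. pombe cells. The labels do not give the number of S. cerevisiae cells per sample, so a ratio on this scale is not a ratio per cell. On this scale TPS1 averaged 8215 ± 1780.4 at 1 °C, 6380.3 ± 930.2 at 5 °C and 1513 ± 197 at 30 °C in steady-state RNA (SD, n = 3 each). The cold groups overlapped with each other and stood apart from 30 °C, with ratios of 5.43 for 1 °C over 30 °C and 4.22 for 5 °C over 30 °C. All S. cerevisiae mRNA together gave ratios of 3.11 and 1.43 for these comparisons, so that at 5 °C TPS1, TSL1 (4.61) and ATH1 (4.69) lay well above the total and NTH2 (1.46, groups overlapping) lay close to it in ratio of 5 °C over 30 °C. Each of the ratios to 30 °C whose groups did not overlap had p = 0.1 in the two-sided exact permutation test, the smallest that 3 against 3 cultures allow, so that no such comparison could pass 0.05.

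Added glutathione left no called change in any of the 7 genes. At steady state at 1 °C, TPS1 had 769.7, 878 and 836 TPM in high [GSH] and 803, 748 and 717 TPM in low [GSH]. The high [GSH] libraries lay mostly above the low [GSH] ones but overlapped with them, and the log2 fold change of 0.20 (95% interval 0.04 to 0.36) had an adjusted p of 0.896. At 5 °C TPS1 had 1249, 1198 and 1165 TPM in high [GSH] and 1339.7, 1327 and 1207 TPM in low [GSH], with overlapping groups. edgeR called 0 of the 7 genes for glutathione at 1 °C and at 5 °C, and 0% of all genes in either, with 1 and 0 members at an unadjusted p below 0.05 and 298 and 43 genes. The intervals of the members ran from -0.27 to 0.36 at 1 °C and from -0.29 to 0.30 at 5 °C on the log2 scale. In labelled RNA edgeR again called 0 of the 7 genes and 0% of all genes at either temperature. Reads were summed per culture over the times that all cultures of a temperature share, without 3 h and 12 h at 5 °C. TSL1 was 0.31 higher in high [GSH] at 5 °C (95% interval 0.07 to 0.56, adjusted p = 0.946) and TPS2 was 0.19 higher (adjusted p = 0.946), the 2 members with an unadjusted p below 0.05 there, among 264 genes. In labelled RNA at 1 °C 0 members and 88 genes were at an unadjusted p below 0.05, and the members' intervals ran from -0.33 to 0.16. The difference of the glutathione effects between 1 °C and 5 °C gave 0 calls at steady state (1 member and 61 genes at an unadjusted p below 0.05) and 0 calls in labelled RNA (1 member and 113 genes). DESeq2 called 0 members in each of these comparisons too, and 4 genes in all for labelled RNA at 1 °C.

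The synthesis genes and the trehalase genes parted in newly made RNA at 5 °C. In low [GSH], labelled TPS1 mRNA was 127, 127 and 141 TPM after 1.5 h, 189, 167 and 165 TPM after 3 h, 424, 405 and 415 TPM after 6 h, 849, 829 and 739 TPM after 12 h, 917, 759 and 734 TPM after 24 h, 1068, 947 and 983 TPM after 48 h and 1171, 945 and 1126 TPM after 96 h. The 3 libraries lay close together at each time and the groups up to 12 h did not overlap, so that the TPS1 level in labelled mRNA climbed over the first 12 h. The log2 fold change at 48 h over 1.5 h was 3.24 (SE 0.15, adjusted p = 1.16e-25). In high [GSH] TPS1 had 994, 804 and 867 TPM at 48 h and 143, 117 and 115 TPM at 1.5 h, a log2 fold change of 3.13 (SE 0.15, adjusted p = 4.33e-25).

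TSL1 ended higher as well, with 74.5, 131 and 152 TPM after 1.5 h, 56.1, 88.4 and 65.1 TPM after 3 h, 231, 289.6 and 220.3 TPM after 12 h and 302.9, 305 and 364 TPM after 48 h in low [GSH]. Its 48 h libraries were all above its 1.5 h libraries, with a log2 fold change of 1.76 (SE 0.20, adjusted p = 2.71e-11), and in high [GSH], with 476, 395 and 299 TPM at 48 h and 119.9, 87.8 and 107 TPM at 1.5 h, it was 2.19 (SE 0.20, adjusted p = 4.1e-14). TPS2 had 277, 254 and 296 TPM at 48 h and 88.9, 107 and 132 TPM at 1.5 h in low [GSH], a log2 fold change of 1.65 (SE 0.15, adjusted p = 1.65e-14). TPS3 had 139.7, 135 and 143 TPM at 48 h and 64.2, 72.1 and 79.4 TPM at 1.5 h, a log2 fold change of 1.27 (SE 0.13, adjusted p = 5.3e-12), and for both genes the later libraries were all higher than the earlier ones.

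The trehalase genes changed less over the same hours. NTH1 was the most abundant member in labelled mRNA after 1.5 h, with 229, 286 and 381 TPM, and had 429.8, 455 and 433 TPM after 12 h and 371, 347 and 381 TPM after 48 h in low [GSH]. Its groups at 1.5 h and 48 h overlapped in TPM, and its TMM-scaled log2 fold change of 0.62 (SE 0.13, adjusted p = 3.19e-05) was the smallest of the 5 called higher. ATH1 had 72.5, 90.1 and 98.5 TPM after 1.5 h, 92.5, 93.4 and 83.7 TPM after 12 h and 80.7, 77.8 and 91.3 TPM after 48 h, with overlapping groups and a log2 fold change at 48 h over 1.5 h of 0.25 (SE 0.16, adjusted p = 0.154), which was not called in low [GSH]. In high [GSH] it was 0.56 (SE 0.16, adjusted p = 0.00155) and was called. The difference between the glutathione levels was called by edgeR for 0 members and 0% of genes, with 0 members and 24 genes at an unadjusted p below 0.05 and 0 members called by DESeq2. NTH2 ran the other way, with 94.1, 77.9 and 75.2 TPM after 1.5 h, 70.3, 59.0 and 59.5 TPM after 12 h and 54.2, 48.2 and 51.1 TPM after 48 h. All of its 48 h libraries were below its 1.5 h libraries, with a log2 fold change of -0.37 (SE 0.14, adjusted p = 0.0174), relative to other genes. That call was lost without low [GSH] replicate 1 (adjusted p = 0.107) or replicate 2 (0.0522) and with a trend on coding length removed (-0.15, adjusted p = 0.378), under which ATH1 was called higher (0.60, adjusted p = 4.53e-06). The NTH2 value turned positive (1.76) when the S. pombe reads set the scale, which moved the median of all genes to 2.13. In low [GSH] 5 of the 7 genes were called higher and 1 lower, where 32% and 30.8% of the 5802 genes tested were, and in high [GSH] 6 were called higher, where 32.6% were. The members' median was 1.27 in low [GSH], beside 0.01 for all genes.

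**Figure D2:**
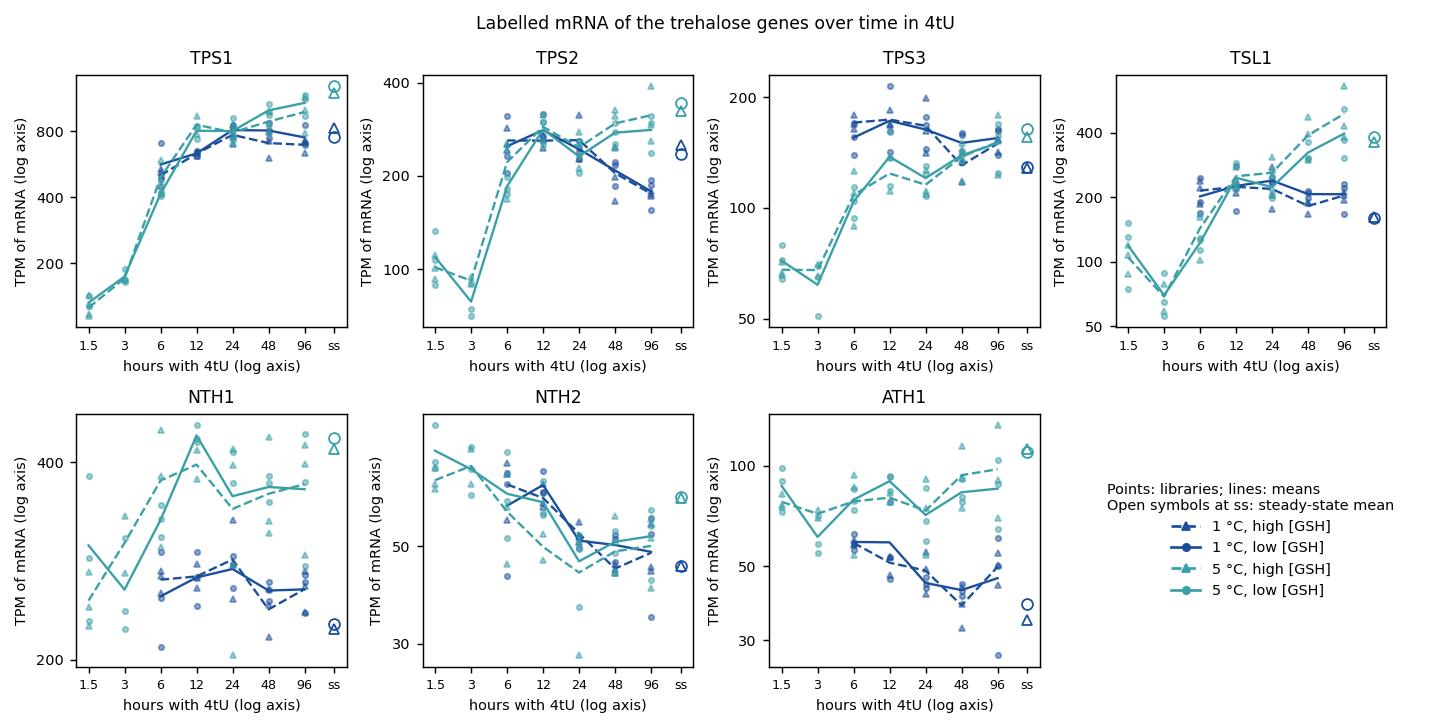
Labelled mRNA of the 7 genes in TPM (vertical, log scale) against hours of labelling (horizontal, log scale) at 1 °C and 5 °C. Points are libraries, lines join group means and open symbols are steady-state means. At 5 °C TPS1 averaged 999 TPM after 48 h and 132 TPM after 1.5 h in low [GSH], while NTH2 averaged 51.2 TPM after 48 h and 82.4 TPM after 1.5 h, a fall relative to other genes that the S. pombe scaling turns into a rise.

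The ratio of the summed TPM of the 4 synthesis genes to that of the 3 trehalase genes puts the divergence in 1 number that no scaling between libraries alters. At 5 °C in low [GSH] it averaged 0.924 ± 0.0350 after 1.5 h, 0.985 ± 0.0590 after 3 h, 1.76 ± 0.126 after 6 h, 2.48 ± 0.161 after 12 h, 2.97 ± 0.434 after 24 h, 3.47 ± 0.0610 after 48 h and 3.86 ± 0.353 after 96 h (SD, n = 3), beside 3.58 ± 0.209 at steady state. The purified RNA, unlabelled carry-over included, thus held about as much TPM for breakdown as for synthesis in the first hours. It came close to the steady-state ratio by 48 h. In high [GSH] the ratio averaged 3.45 ± 0.231 after 48 h and 1.02 ± 0.149 after 1.5 h. TPS1 made up 59.7%, 57.7% and 55.0% of the synthesis sum in the 3 low [GSH] libraries at 48 h and 35.9%, 29.1% and 27.9% at 1.5 h. At 1 °C the ratio already stood at 3.15 ± 0.449 after 6 h in low [GSH] and at 2.93 ± 0.243 in high [GSH], with 3.96 ± 0.449 and 3.81 ± 0.375 after 48 h and 4.13 ± 0.311 and 4.53 ± 0.130 at steady state. At 30 °C it was 9.31, 1.02 and 2.37 in the 3 libraries after 5 min, the first of them the library of 18937 mRNA reads, and averaged 1.74 ± 0.524 after 10 min and 3.25 ± 0.735 after 20 min, against 3.21 ± 0.664 at steady state. No test was made of this ratio. RNA that comes through purification without label is seen at time 0, where TPS1 relative to S. pombe transcripts came to between 12.5% and 97.9% of the first labelled library at 5 °C (median 25.7%). That was the highest share among the members, with medians of 12.6% for TSL1, 8.68% for TPS2 and 8.32% for TPS3. The medians were 4.26% for NTH1, 3.57% for ATH1 and 1.65% for NTH2. Carry-over thus weighed more on the synthesis sum than on the trehalase sum. Time 0 was not subtracted here, so the early ratios are not those of newly made RNA alone.

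**Figure D3:**
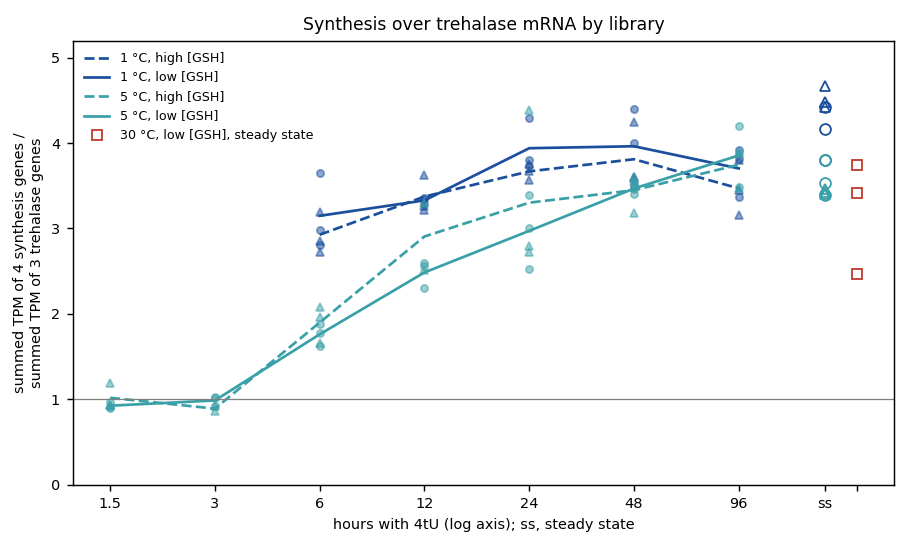
Ratio of summed TPM of TPS1, TPS2, TPS3 and TSL1 to summed TPM of NTH1, NTH2 and ATH1 (vertical) in each library, by labelling time and at steady state (horizontal), with 30 °C steady state as red squares. The 5 °C low [GSH] libraries averaged 3.86 after 96 h and 0.924 after 1.5 h, and those at 1 °C averaged 3.15 after 6 h.

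At 1 °C the labelled mRNA moved less between 6 h and 48 h. TPS1 had 872, 809 and 743 TPM at 48 h and 485, 499.8 and 709.7 TPM at 6 h in low [GSH], and 797, 720.0 and 607 TPM at 48 h and 519, 540.3 and 451 TPM at 6 h in high [GSH]. The later libraries were all higher at both glutathione levels, with log2 fold changes of 0.85 (SE 0.13, adjusted p = 7.5e-07) in low [GSH] and 0.95 (SE 0.13, adjusted p = 5.5e-08) in high [GSH]. NTH1 had 246, 256 and 263 TPM at 48 h and 209, 248 and 292 TPM at 6 h in low [GSH]. Its groups overlapped in TPM, and the TMM-scaled log2 fold change was 0.36 (SE 0.13, adjusted p = 0.0152), a call lost without replicate 1 (adjusted p = 0.15) or replicate 2 (0.143). In high [GSH] it was 0.32 (SE 0.13, adjusted p = 0.0323), a call lost without any 1 of the 3 replicates (adjusted p between 0.0781 and 0.148). These were the 2 genes called higher at each glutathione level, where 25.4% of all genes were in low [GSH] and 26.9% in high [GSH]. The count depended on the setting, with 6 called higher at each level after removal of a trend on coding length and 7 under the S. pombe scaling, where the median of all genes was 1.48 in low and 1.43 in high [GSH]. The share of all genes called under these settings is not given, so these counts are not a result about the members. With summed mRNA reads NTH1 in high [GSH] lost its call (0.28, adjusted p = 0.0568) and TPS3 in low [GSH] gained one (0.28, adjusted p = 0.0282). TPS3 (log2 fold change 0.29, adjusted p = 0.0634) and TSL1 (0.37, adjusted p = 0.104) fell short of the threshold in low [GSH], and both passed it without replicate 3 (0.47, adjusted p = 0.0126, and 0.61, adjusted p = 0.0283). For the difference between glutathione levels edgeR called 0 members and 0.0345% of all genes at 1 °C, with 0 members and 366 genes at an unadjusted p below 0.05 and 0 members called by DESeq2.

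When the cold temperatures are set against each other at the same labelling time, the genes called lower after 6 h relative to other genes were the trehalase genes, none of which was called under the S. pombe scaling. After 6 h in low [GSH], NTH1 had 209, 248 and 292 TPM at 1 °C and 344, 328 and 308 TPM at 5 °C, and ATH1 had 56.1, 62.5 and 58.8 TPM at 1 °C and 85.3, 73.6 and 78.4 TPM at 5 °C. Both lay lower at 1 °C without overlap, with log2 fold changes of -0.70 (SE 0.13, adjusted p = 7.76e-06) for NTH1 and -0.74 (SE 0.16, adjusted p = 8.4e-05) for ATH1. TPS1 had 485, 499.8 and 709.7 TPM at 1 °C and 424, 405 and 415 TPM at 5 °C, so that the 1 °C libraries were all higher in TPM, but its TMM-scaled log2 fold change was 0.14 (SE 0.13, adjusted p = 0.39) and was not called. NTH2 was also called lower (-0.41, SE 0.14, adjusted p = 0.0118), though not without 1 °C replicate 3 (adjusted p = 0.177) or 5 °C replicate 1 (0.135). These made 3 of the 7 genes lower, where 24.9% of all genes were, and without 1 °C replicate 1 TPS3 (0.33, adjusted p = 0.0482) and TSL1 (0.51, adjusted p = 0.0338) were called higher. With summed mRNA reads, which moved the median of all genes to 0.25, the 4 synthesis genes were called higher at 1 °C (log2 fold changes 0.31 to 0.59) and NTH1 (-0.50) and ATH1 (-0.53) lower. With S. pombe reads, which moved the median of all genes to 0.83, the 4 synthesis genes were called higher (0.98 to 1.25, adjusted p between 0.00827 and 0.0237), and NTH1 (0.15), NTH2 (0.32) and ATH1 (0.065) turned positive without a call. For both scalings the share of all genes called is not given.

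After 48 h, 3 of the 4 synthesis genes were called lower at 1 °C as well, relative to other genes. TSL1 had 209, 214 and 198 TPM at 1 °C and 302.9, 305 and 364 TPM at 5 °C, and TPS1 had 872, 809 and 743 TPM at 1 °C and 1068, 947 and 983 TPM at 5 °C. Each was lower at 1 °C in all libraries, with log2 fold changes of -0.85 (SE 0.19, adjusted p = 0.000283) for TSL1 and -0.50 (SE 0.13, adjusted p = 0.0018) for TPS1. The TPS1 call was lost with summed mRNA reads (-0.22, adjusted p = 0.0838). ATH1 had 40.7, 42.3 and 44.3 TPM at 1 °C and 80.7, 77.8 and 91.3 TPM at 5 °C, a log2 fold change of -1.18 (SE 0.16, adjusted p = 1.78e-08), the largest of the 5 genes called lower at 48 h, where 21.5% of all genes were. TPS2 and NTH1 were the other two, and TPS3 (-0.09, SE 0.13, adjusted p = 0.606) and NTH2 (-0.23, SE 0.14, adjusted p = 0.191) were not called. Under the S. pombe scaling, which moved the median of all genes to 1.47, all 7 values at 48 h were positive, from 0.27 for ATH1 to 1.33 for TPS3.

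Newly made RNA was set against steady-state RNA of the same temperature to ask which members were under- or over-represented among fresh transcripts. After 1.5 h at 5 °C, labelled TPS1 mRNA (127, 127 and 141 TPM) was far below its steady-state level (1339.7, 1327 and 1207 TPM), with no overlap. The log2 fold change of labelled over steady-state RNA was -3.80 (SE 0.19, adjusted p = 5.07e-11), at the 0.714 percentile of all genes tested. TSL1 (-2.20, SE 0.23, adjusted p = 1.98e-07), TPS2 (-2.17, SE 0.21, adjusted p = 1.2e-07) and TPS3 (-1.71, SE 0.15, adjusted p = 2.6e-08) were likewise lower in labelled RNA, and so was NTH1 (-1.07, SE 0.20, adjusted p = 0.000182). ATH1 had -0.85 (SE 0.28, adjusted p = 0.0151), a call lost without replicate 1 (adjusted p = 0.0879) or replicate 2 (0.0718). NTH2 had -0.16 (SE 0.24, adjusted p = 0.596) and was not called, with 94.1, 77.9 and 75.2 TPM in labelled RNA and 59.0, 71.2 and 63.9 TPM at steady state. Thus 6 of the 7 genes were called lower in labelled RNA, where 28.3% of the 5739 genes tested were. Labelled and steady-state RNA differ in purification as well as in age, and the part of this in the difference was not tested.

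At 1 °C and 30 °C the gap was smaller. After 6 h at 1 °C, TPS1 had 485, 499.8 and 709.7 TPM in labelled RNA and 803, 748 and 717 TPM at steady state, all labelled libraries being lower, with a log2 fold change of -1.06 (SE 0.17, adjusted p = 0.000155). TPS2 (-0.57, SE 0.20, adjusted p = 0.0382) and TPS3 (-0.39, SE 0.14, adjusted p = 0.0426) were called lower too, where 19.9% of all genes were, but both calls were lost without replicate 1 or replicate 2 (adjusted p between 0.117 and 0.475) and under summed mRNA reads. In TPM the labelled TPS3 libraries (139, 156 and 171) were not below the steady-state ones (135, 140.0 and 113). After 20 min at 30 °C, TPS1 had 522, 529 and 562 TPM in labelled RNA and 383, 461 and 459 TPM at steady state. Labelled replicate 3 held little S. cerevisiae mRNA, with a ratio to S. pombe TPM of 0.537 against 4.08 and 3.11 in replicates 1 and 2. That library enters every test that uses labelled RNA at 30 °C. The labelled libraries were higher in TPM, whereas the TMM-scaled log2 fold change was negative, -0.50 (SE 0.17, adjusted p = 0.0405), and its call was lost without any 1 of the 3 replicates (adjusted p between 0.0784 and 0.152) and under summed mRNA reads (-0.13). It was the 1 member called lower at 30 °C, where 14.7% of all genes were. With summed mRNA reads, which moved the median of all genes to 0.39, the calls were TPS2, TPS3, TSL1 and ATH1 as higher in labelled RNA. What share of all genes was called under that scaling is not given.

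**Figure D4:**
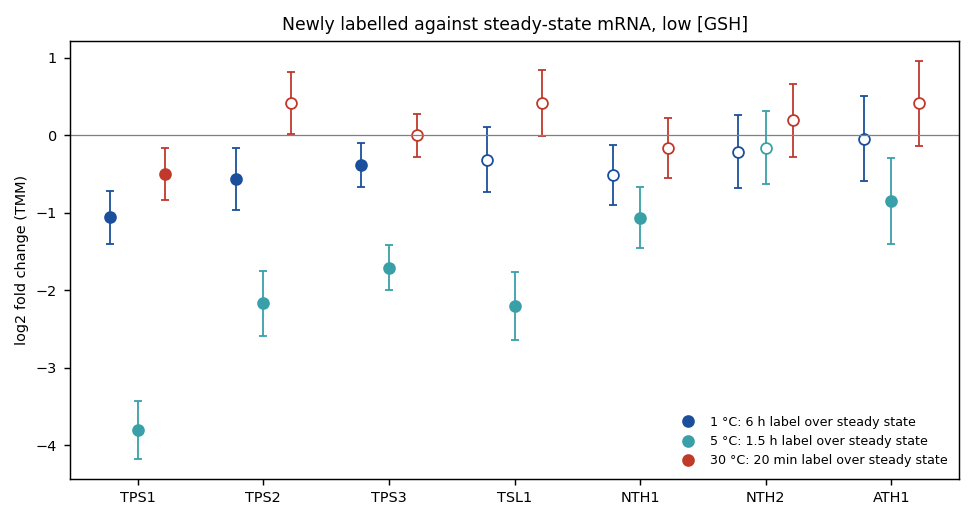
Log2 fold change of labelled over steady-state RNA in low [GSH] (vertical, TMM-scaled counts) for each gene (horizontal), at 1 °C (6 h of label), 5 °C (1.5 h) and 30 °C (20 min). Lines are 95% intervals, filled symbols have an adjusted p below 0.05 and open symbols do not. TPS1 stood at -1.06, -3.80 and -0.50 at the 3 temperatures, and scaling to summed mRNA reads makes TPS2, TPS3, TSL1 and ATH1 at 30 °C higher in labelled RNA.

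The difference between temperatures was then tested directly, in interaction terms chosen after the values had been seen. The labelled-over-steady-state fold change at 5 °C minus that at 30 °C was -3.31 (SE 0.25, adjusted p = 3.99e-08) for TPS1, -2.62 (SE 0.31, adjusted p = 3.99e-06) for TSL1, -2.59 (SE 0.29, adjusted p = 2.48e-06) for TPS2 and -1.71 (SE 0.20, adjusted p = 4.37e-06) for TPS3. NTH1 and ATH1 were called as well (-0.90 and -1.27), though not without 5 °C replicate 1 or replicate 2 (adjusted p between 0.0554 and 0.0713), and NTH2 was not (-0.35, adjusted p = 0.438). That made 6 of the 7 genes lower, where 20.5% of all genes were. The same difference for 1 °C minus 30 °C was called for TPS2 alone (-0.99, SE 0.29, adjusted p = 0.0489), where 3.52% of all genes were lower. That call was lost without 1 °C replicate 1 or 2 or 30 °C replicate 2 or 3 (adjusted p between 0.0663 and 0.228), and without 1 °C replicate 3 TPS1 was called too (-0.81, adjusted p = 0.0351). The difference for 1 °C minus 5 °C was positive and called for the 4 synthesis genes (2.74 for TPS1, 1.89 for TSL1, 1.60 for TPS2 and 1.32 for TPS3), where 12% of all genes were higher. There TPS3 lost its call under the S. pombe scaling (adjusted p = 0.0767), and with a trend on coding length removed NTH1 (0.60, adjusted p = 0.0405) and ATH1 (0.85, adjusted p = 0.0144) were called as well. The labelling times differ between these groups. At the 6 h that both cold temperatures share, TPS1 had 485, 499.8 and 709.7 TPM at 1 °C and 424, 405 and 415 TPM at 5 °C in labelled RNA, below steady-state levels of 803, 748 and 717 TPM and 1339.7, 1327 and 1207 TPM, so that the wider gap was again at 5 °C. No matched time exists for 30 °C, where labelling time and temperature cannot be told apart.

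Set side by side, labelled RNA in the cold held less of the synthesis genes than labelled RNA at 30 °C, relative to other genes, though at 1 °C the S. pombe scaling turned these values positive. At 5 °C after 1.5 h over 30 °C after 20 min, the log2 fold change was -2.58 (SE 0.22, adjusted p = 3.49e-08) for TPS2, -2.37 (SE 0.18, adjusted p = 1.16e-08) for TPS1, -1.57 (SE 0.22, adjusted p = 1.29e-05) for TSL1 and -1.36 (SE 0.15, adjusted p = 6.22e-07) for TPS3, and NTH2 was called lower too, with -0.93 (SE 0.24, adjusted p = 0.00373). TPS2, for example, had 88.9, 107 and 132 TPM at 5 °C and 394, 431 and 777 TPM at 30 °C, with the 30 °C libraries all higher and replicate 3 highest. NTH1 (-0.24, SE 0.20, adjusted p = 0.315) and ATH1 (-0.18, SE 0.28, adjusted p = 0.616) were not called, and without 30 °C replicate 3, in which ATH1 had 163 TPM against 46.6 and 42.1 TPM in the others, ATH1 became higher at 5 °C (0.50, adjusted p = 0.00261). So 5 of the 7 genes were lower at 5 °C, where 27.7% of all genes were. NTH2 lost its call under the S. pombe scaling (adjusted p = 0.183) and NTH1 gained one with a trend on coding length removed (-0.43, adjusted p = 0.0235). At 1 °C after 6 h over 30 °C after 20 min all 7 were called lower, from -1.66 (SE 0.21, adjusted p = 5.98e-06) for TPS2 to -0.52 (SE 0.14, adjusted p = 0.00599) for TPS3, where 25% of all genes were. The call of TPS1 was lost without 1 °C replicate 1 or 2 or 30 °C replicate 2 (adjusted p between 0.0661 and 0.108) and that of TPS3 without 1 °C replicate 1 (0.0557). With summed mRNA reads 3 of the 7 were called, the share of all genes called there not being given, and TPS1 (-0.11, adjusted p = 0.518), TPS3 (-0.08, adjusted p = 0.6), NTH1 (-0.33, adjusted p = 0.126) and ATH1 (-0.55, adjusted p = 0.0964) were not. Under the S. pombe scaling, which moved the median of all genes to 1.88, all 7 values were positive.

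The accumulation of labelled mRNA relative to S. pombe transcripts up to 48 h, less its time 0 value, was fitted per culture as production at a constant rate with first-order decay, which gives a half-life. In low [GSH] at 5 °C, TSL1 gave 18.3, 27.5 and 32.8 h and TPS1 14.5, 27.1 and 24.9 h in the 3 cultures, and NTH2 gave 2.41, 1.39 and 7.23 h. The TSL1 and TPS1 fits were all longer than any of NTH2, and the means of TPS2 (11.8 ± 3.98 h), TPS3 (11.3 ± 4.35 h), ATH1 (6.87 ± 4.66 h) and NTH1 (6.80 ± 3.26 h) stood between (SD, n = 3), beside a median of 4.92 h over all genes. At 1 °C in low [GSH] the means ran from 7.32 ± 0.816 h for ATH1 to 18.7 ± 8.69 h for TPS1, beside a median of 8.99 h over all genes. In high [GSH] at 5 °C the fit reached its upper limit, 20 times the last time used, in 1 or 2 of the 3 cultures for TPS1, TPS2, TPS3, TSL1 and ATH1, so that no half-life can be given there, and at 30 °C it did so for all 7 genes. On simulated curves with 10% noise the 5 °C times returned a median of 23.8 h for a true 24 h, with the central 80% of the fits between 16.4 and 41.9 h.

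With 6 cultures at 1 °C against 6 at 5 °C, permuted within glutathione level (two-sided exact test, smallest possible p = 0.005), no member's half-life was called. TSL1 came nearest, with a geometric mean at 1 °C over 5 °C of 0.117 (exact p = 0.005, adjusted p = 0.103), a ratio that includes cultures at the fit's limit, and 4.84% of all genes were at that smallest p. TSL1 was called with weights of 1 over the value (permutation adjusted p = 0.0493) and without 5 °C high [GSH] replicate 1 (0.0422). When the fit took in the 96 h time, TPS1, TPS2, TPS3 and TSL1 were called shorter-lived at 1 °C (permutation adjusted p = 0.0342 each). From 48 h to 96 h, all mRNA relative to S. pombe transcripts fell at 1 °C, on average to 0.782-fold in low and 0.731-fold in high [GSH]. At 5 °C it rose to 1.50-fold and 1.41-fold, and the fitted course cannot fall. The share of all genes called with 96 h is not given. The fitted rates of production relative to S. pombe transcripts were higher at 1 °C for the 4 synthesis genes, by 2.65-fold for TPS3 (permutation adjusted p = 0.025), 2.09-fold for TPS2 (0.0379), 1.98-fold for TSL1 (0.025) and 1.61-fold for TPS1 (0.0499), while the ratios for NTH1 (1.00), ATH1 (1.08) and NTH2 (1.26) were not called. The median gene had a log2 ratio of 0.45 and 20% of all genes were at the smallest p. The labels do not give the number of S. cerevisiae cells per sample, so a rate on this scale is not a rate per cell. For all mRNA counted per cell, the study reports slower production in the coldest cultures than in the other cold cultures. That order is the reverse of the median gene's here, and how the scales relate was not tested. The rates come from the same fits as the half-lives. For each of the 4 synthesis genes, 1 or 2 of the 3 high [GSH] cultures at 5 °C were at the fit's limit. Leaving out 1 culture brought the number of members called in production rate down to 1 or 2 in 9 of the 12 cases, and glutathione gave no call in half-life or production rate.

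Other genes around trehalose were followed in 6 fixed lists, chosen like the members with earlier results of these data known. Over labelling time at 5 °C in low [GSH] (48 h over 1.5 h), 7 of 7 glycogen genes were called higher relative to other genes, with a median log2 fold change of 1.25, among them GLC3, the branching enzyme (2.24), GPH1, the phosphorylase (1.83), and GSY2, the main synthase (1.33). Of the 6 genes that supply UDP-glucose and glucose 6-phosphate 5 were called higher and 1 lower, with GLK1, glucokinase, at 2.83 and UGP1, which makes UDP-glucose, at 2.07. Genes known to be driven by the stress response element were higher in 10 of 10 (median 2.50), with HSP42, a small heat shock protein, at 3.28. Regulators of the enzymes, among them BMH2, a 14-3-3 protein that binds Nth1 (1.84), were higher in 4 of 5 with none lower, and the cAMP and protein kinase A genes were split, 5 higher and 6 lower of 12, with BCY1, the inhibitory subunit, at 2.22 and PDE2, a phosphodiesterase, at -3.21. Among 4 stress transcription factors 1 was called higher, GIS1 (0.75). In that comparison 32% of all genes were called higher and 30.8% lower, with a median of 0.01.

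At steady state at 1 °C over 5 °C in low [GSH] the same lists stood on the lower side, as the members did, relative to other genes. The stress response element genes were lower in 9 of 10 and higher in 1 (median log2 fold change -1.17, HSP104 at -1.37 and GRE3 at -1.23), the glycogen genes lower in 6 of 7 (median -0.82, GSY2 at -1.14), the regulators lower in 4 of 5 (RIM15, a kinase active in stationary phase, at -0.93), the substrate genes lower in 3 and higher in 1 of 6, the kinase A pathway lower in 8 and higher in 3 of 12 and the transcription factors lower in 2 of 4. There 28.9% of all genes were called lower and 29.8% higher, with a median of 0.04. In labelled over steady-state RNA at 5 °C, 10 of 10 stress response element genes were lower, with a median of -3.61 beside -3.80 for TPS1, and 7 of 7 glycogen genes, with a median of -2.02, where 28.3% of all genes were lower and 28.9% higher. These are counts and medians only, and nothing here sets a list apart from other genes.

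Across the 32 groups of labelled and steady-state libraries, the genes whose log2(TPM + 1) followed the members most closely were named by Pearson's r, as a description with no test. TPS1 was nearest to NNR1 (r = 0.972), SYM1 (0.968) and ARA1 (0.963, an arabinose dehydrogenase), TSL1 to STI1 (0.896, a co-chaperone), YGR026W (0.885) and GDB1 (0.878, the glycogen debranching enzyme), and TPS2 to HSP42 (0.880), GLK1 (0.846) and RAS2 (0.845, a GTPase that activates adenylate cyclase). TPS3 was nearest to GGA1 (0.951), NTH1 to SIS1 (0.905, an Hsp40 chaperone) and ATH1 to KSP1 (0.928). NTH2 was nearest to YCF1 (0.928), a vacuolar transporter of glutathione conjugates, YRR1 (0.923), a transcription factor of drug resistance genes, and SNQ2 (0.919), a drug efflux pump. Among the members themselves the 4 synthesis genes had r between 0.77 and 0.86 with one another, NTH1 and ATH1 had 0.857, and NTH2 and TPS1 had -0.596. The groups share cultures and labelling times, so the 32 points are not independent.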

How the data were processed

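RNA was extracted with the RiboPure yeast kit from cultures with S. pombe cells labelled with 4tU as spike-in, and stranded total RNA libraries were made after removal of ribosomal RNA. Per the study's methods the authors quantified reads with Salmon. The deposited tables hold TPM and estimated counts of reads per transcript of both yeasts, as Salmon wrote them for the authors. The R64 build is named in the submitters' processing notes.

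From these tables the 5876 nuclear protein-coding genes of 6804 S. cerevisiae transcripts were kept, 684 other mRNA models were left out, and TPM was rescaled to 1000000 over the kept genes. After rounding to whole numbers, these counts entered edgeR 4.0.16 (R 4.3.3; TMM, filterByExpr, quasi-likelihood F test, Benjamini-Hochberg adjustment at 0.05) in 4 fits: 15 steady-state libraries (5697 genes), 12 cold cultures with labelled reads summed over time (5807), 70 cold labelled libraries (5802) and 18 labelled and steady-state libraries in low [GSH] (5739). Of 26 comparisons, 6 interaction terms were added after the data had been seen. The members and lists were chosen with earlier results of these data known. The text names the 7 members and, per list, its 3 genes of lowest adjusted p at most, and per member its 3 genes of highest r at most. Replicates are separate cultures, none of 107 replicate pairs held identical values, and the smallest chi-square per degree of freedom between replicates was 4.70. Interval widths are 95% and cover the spread between cultures.

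Production and decay were fitted to the TPM of a gene per TPM of S. pombe transcripts after subtraction of time 0, up to 48 h, with half-lives bounded at 0.1 times the first and 20 times the last time. The main tests were checked on simulated counts with 200 changed genes, of which 83.6% of 2-fold changes were recovered for 48 h over 1.5 h at 5 °C on 5790 genes. Python 3.11.15 with numpy 2.4.6, pandas 2.3.3, scipy 1.17.1 and matplotlib 3.10.9 and limma 3.58.1 were used. Alternatives were DESeq2 1.42.0, DESeq2's size factors in edgeR, summed mRNA reads or S. pombe reads as library size, no filter, a block for the replicate number (for the culture in comparisons over time), removal of a trend with coding length, each culture left out, and for half-lives the use of 96 h and other weights.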

Additional observations from a re-analysis of the deposited data

Results flagged for a closer look

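The following values were picked out because the labelled-over-steady-state fold change of a gene differed between temperatures in a direct test of the difference. All are differences of log2 fold changes in low [GSH] with TMM-scaled counts. At 5 °C minus 30 °C the difference was -3.31 for TPS1, -2.59 for TPS2, -1.71 for TPS3, -2.62 for TSL1, -0.90 for NTH1 and -1.27 for ATH1. At 1 °C minus 30 °C it was -0.99 for TPS2. At 1 °C minus 5 °C it was 2.74 for TPS1, 1.60 for TPS2, 1.32 for TPS3 and 1.89 for TSL1. These terms were chosen after the data had been seen, and the labelling times compared were 6 h in 1 °C cultures, 1.5 h in 5 °C cultures and 20 min in 30 °C cultures.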

How the results depend on the processing

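The choice of library size changed the members' values most, and the cause was not tested. Counts of members called under other settings stand without the share of all genes called there. Of 1295 log2 fold changes of members under other settings than the one reported, 1171 kept their direction and side of the threshold, 33 lost and 44 gained a call and 47 turned round. Of 1029 with 1 replicate left out, 991 kept both, 31 lost and 6 gained a call and 1 turned round. Among all 2324 values, 81 more changed sign where no setting called them, and 20 of 420 half-life means moved by more than 1 SD. Leaving out 1 replicate moved the number of members called to between 4 and 6 at steady state at 1 °C over 30 °C, 1 and 4 for 48 h over 6 h at 1 °C in low [GSH], 1 and 1 in high [GSH], 5 and 6 for 48 h over 1.5 h at 5 °C in low [GSH], 2 and 5 for 1 °C over 5 °C after 6 h, 1 and 3 for labelled over steady-state RNA at 1 °C, 5 and 6 at 5 °C and 0 and 0 at 30 °C. It gave 5 to 7 for labelled RNA at 1 °C over 30 °C, 5 to 6 at 5 °C over 30 °C, 4 to 6 for the difference 5 °C minus 30 °C, 0 to 2 for 1 °C minus 30 °C, 0 to 1 for half-life and 1 to 4 for production rate, and no change elsewhere. The ATH1 value for labelled RNA at 5 °C over 30 °C ran from -0.46 without 30 °C replicate 2 to 0.50 without 30 °C replicate 3.

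With summed mRNA reads as library size, values that turned positive were TPS3 0.47, TSL1 0.26, NTH1 0.17 and ATH1 0.034 at steady state at 1 °C over 30 °C and TPS3 0.37 in labelled over steady-state RNA at 30 °C. Members called were then 4 at steady state at 1 °C over 5 °C in high [GSH], 1 for 48 h over 6 h at 1 °C in high [GSH], 6 for 1 °C over 5 °C after 6 h (4 higher, 2 lower), 1 in labelled over steady-state RNA at 1 °C and 4 (higher) at 30 °C, 3 in labelled RNA at 1 °C over 30 °C and 3 for the difference 1 °C minus 30 °C.

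With S. pombe reads as library size, values that turned positive at steady state were TPS2 1.61, TPS3 2.14, TSL1 1.93, NTH1 1.82, NTH2 0.98 and ATH1 1.69 at 1 °C over 30 °C, NTH2 0.33 at 5 °C over 30 °C, TPS1 0.43, TPS2 0.66, TPS3 0.84, NTH1 0.24 and NTH2 0.65 at 1 °C over 5 °C in low [GSH], and TPS1 0.64, TPS2 0.84, TPS3 0.90, TSL1 0.012, NTH1 0.28 and NTH2 0.67 in high [GSH]. Over time they were ATH1 1.34 at 1 °C in low [GSH], NTH2 1.26 and ATH1 1.25 at 1 °C in high [GSH], and NTH2 1.76 in low and 2.34 in high [GSH] at 5 °C. At 1 °C over 5 °C in labelled RNA they were NTH1 0.15, NTH2 0.32 and ATH1 0.065 after 6 h and TPS1 0.93, TPS2 0.81, TPS3 1.33, TSL1 0.57, NTH1 0.73, NTH2 1.25 and ATH1 0.27 after 48 h, and in labelled RNA at 1 °C over 30 °C TPS1 1.33, TPS2 0.43, TPS3 1.38, TSL1 0.93, NTH1 1.299, NTH2 0.42 and ATH1 1.34. Members called were 3 (higher) at steady state at 1 °C over 5 °C in low and 4 (higher) in high [GSH], 7 over time at 1 °C in low and 7 in high [GSH], 0 in labelled over steady-state RNA at 1 °C and 0 at 30 °C, 4 (higher) in labelled RNA at 1 °C over 30 °C and 0 for the difference 1 °C minus 30 °C.

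With a trend on coding length removed, ATH1 over time at 1 °C became 0.36 in low and 0.42 in high [GSH], and members called were 6 and 6 there, 5 in labelled over steady-state RNA at 1 °C and 2 at 30 °C. Calls of TPS3 were then lost at steady state at 5 °C over 30 °C (0.12) and at 1 °C over 5 °C in high [GSH] (-0.17). Over time at 5 °C in low [GSH] NTH2 lost a call (-0.15) and ATH1 gained one (0.60), and for the difference 1 °C minus 5 °C NTH1 (0.60) and ATH1 (0.85) gained one. With DESeq2's size factors 0 were called for the difference 1 °C minus 30 °C. Half-life calls were 4 with the 96 h libraries and 1 with weights of 1 over the value. Same-numbered replicates did not deviate together in every pair of any comparison, so the numbers were not taken as pairs. In comparisons over time and of labelled with steady-state RNA the libraries still come from the same cultures. That check does not make them independent, and a block was used there only as an alternative. A block for the culture gave 4 members called for 48 h over 6 h at 1 °C in low [GSH], with TPS3 at 0.28 and TSL1 at 0.38 added. In labelled over steady-state RNA at 1 °C a block for the replicate number lost TPS3 and gained NTH1, with 3 called. These blocks changed no other call. Every sample correlated best with its own number (3 of 3) for glutathione at steady state at 1 °C and at 5 °C, for time at 1 °C in high [GSH] and for labelled RNA at 5 °C over 30 °C.

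Groups of 3 cultures allow no exact p under 0.1 for the spike-in levels, and a half-life far beyond 48 h cannot be fitted.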

Other observations

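Within the synthesis complex, the balance of the regulatory subunit genes differed by temperature. The ratio of TSL1 to TPS3 in TPM was 1.24, 1.20 and 1.29 at steady state at 1 °C in low [GSH], 2.27, 2.41 and 2.27 at 5 °C in low [GSH] and 1.301, 1.542 and 1.459 at 30 °C, so that every 5 °C culture stood above every other. In labelled RNA at 5 °C in low [GSH] the ratio averaged 1.63 ± 0.41 after 1.5 h, 1.14 ± 0.24 after 3 h, 1.82 ± 0.35 after 12 h and 2.33 ± 0.20 after 48 h (SD, n = 3), and at 1 °C in low [GSH] it stayed between 1.29 and 1.48 in the means from 6 h to 96 h. Between the paralogous neutral trehalases, NTH1 over NTH2 averaged 5.04 ± 0.37 at 1 °C, 6.77 ± 0.54 at 5 °C and 2.92 ± 0.31 at 30 °C in low [GSH] at steady state. The groups did not overlap. These ratios were computed after the data had been seen and no test was made of them.

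The time 0 libraries hold RNA recovered without label. At 30 °C replicate 3, a library of 8368 mRNA reads, NTH2 was at 3623 TPM from 58 reads, against 57.2 TPM in replicate 2 and 0 in replicate 1. At 1 °C in low [GSH] each of the 3 time 0 libraries held 1 read of NTH2.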
